A study of Rattus norvegicus with 16 samples.

Results

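The genes described here are 8 genes of the podocyte, the epithelial cell that wraps the outside of the glomerular capillaries: Nphs1, Ptpro, Podxl, Synpo, Cd2ap, Magi2, Plce1 and Wt1. They were taken by gene symbol from a table of 35849 genes, and each had a single row. All 8 passed the filter on low counts in every comparison. Expression was measured by RNA sequencing in the kidney of 16 male Sprague Dawley rats, 6 to 8 weeks old at the start, with 4 rats in each of 4 groups. The normal group received citrate buffer and a normal diet. The DN (diabetic nephropathy) group received streptozotocin at 45 mg/kg, a toxin of the insulin-producing beta cells, and a diet high in glucose and fat, and animals were kept in the study only with blood glucose above 16.7 mmol/L. Rats of 2 further groups were made diabetic in the same way and were given sinomenine (SIN), a plant alkaloid, every day by gavage for 8 weeks, either 20 mg/kg (SIN 20) or 40 mg/kg (SIN 40), while the DN group was given vehicle. The normal group therefore differed from the other 3 groups in both the injection and the diet, and these cannot be told apart.

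Podocytes extend interdigitating foot processes over the glomerular basement membrane, and the slit diaphragm that bridges neighbouring foot processes is the last layer of the filter that keeps plasma protein out of the urine. Nephrin forms the core of the slit diaphragm, adaptor proteins tie this core to the actin of the foot process, and inherited loss of several of these proteins causes nephrotic syndrome. Podocytes hardly divide, and loss of podocytes or of their foot processes is a known feature of diabetic kidney disease.

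The RNA came from kidney tissue and not from isolated glomeruli, so fewer podocytes and less RNA per podocyte cannot be told apart. Libraries held between 19616312 and 25217030 estimated counts, and the lowest and highest counts of a member in any rat ranged from 35 to 97 for Magi2 and from 3197 to 5468 for Podxl. The libraries of each group carry consecutive serial numbers, so a library batch and the condition cannot be told apart. A few libraries stood apart in markers of other kidney compartments. The inner medulla score is the mean deviation in log2 CPM of 6 rows of inner medulla genes from their mean over all rats. Of these rows 2 are of Slc14a2, so this gene weighs more than the others. The score was -2.87 in normal replicate 1 and -2.02 in DN replicate 4, and between -0.94 and 1.43 in the other rats. DN replicate 3 had the highest score for urothelium, capsule and stroma genes, at 1.87. Values without one of these libraries are given where they move a result, except for correlations between genes, which were computed with all rats only.

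The promoters of members that turned out to move together across rats and of a member that did not are shown for orientation. RefSeq gave a promoter for 7 of the 8 genes on the GRCr8 build, and none was at hand for Plce1. The windows below are the 250 bases before the start of Nphs1 (chr1:94848011-94848260, plus strand), Ptpro (chr4:171895261-171895510, plus strand) and Cd2ap (chr9:25583725-25583974, plus strand), written 5′ to 3′. Nphs1 and Ptpro were the most alike pair of the 8 genes across rats, and Cd2ap was the member with the clearest difference between groups. Capitals mark the letters GTGGGNG, the core of the motif shared by WT1 and EGR factors, and CANNTG, the E-box, searched on both strands.
Nphs1: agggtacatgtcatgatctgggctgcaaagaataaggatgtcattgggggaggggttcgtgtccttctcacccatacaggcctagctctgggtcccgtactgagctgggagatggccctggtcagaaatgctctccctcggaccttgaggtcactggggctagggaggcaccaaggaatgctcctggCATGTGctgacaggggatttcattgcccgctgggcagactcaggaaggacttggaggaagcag
Ptpro: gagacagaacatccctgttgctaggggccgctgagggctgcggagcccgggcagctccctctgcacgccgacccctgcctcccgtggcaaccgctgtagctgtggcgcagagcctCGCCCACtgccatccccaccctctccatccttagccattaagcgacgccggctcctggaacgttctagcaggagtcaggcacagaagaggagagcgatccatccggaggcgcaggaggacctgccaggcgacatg
Cd2ap: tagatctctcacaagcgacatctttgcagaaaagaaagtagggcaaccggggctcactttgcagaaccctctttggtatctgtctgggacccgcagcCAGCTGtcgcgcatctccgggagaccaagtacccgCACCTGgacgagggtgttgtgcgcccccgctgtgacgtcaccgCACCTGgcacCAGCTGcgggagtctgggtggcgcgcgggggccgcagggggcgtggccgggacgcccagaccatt

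The Nphs1 window held 1 E-box and no GTGGGNG match, the Ptpro window held 1 GTGGGNG match on its minus strand and no E-box, and the Cd2ap window held 4 E-boxes and no GTGGGNG match. The Cd2ap window also held the letters TGACGTCA, the cyclic AMP response element, a motif looked for after the sequence had been seen. No match overlapped another. Such matches are common: GTGGGNG stood in 25.6% and CANNTG in 65.5% of 33469 promoter windows of the same length, and TGACGTCA in 1.59%. Of the other members, Magi2 held 1 GTGGGNG match and Wt1 held 2 E-boxes, and the Podxl and Synpo windows held none of the 3 motifs. The GC content of the 7 windows ran from 57.2% in Nphs1 to 76.4% in Podxl.

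Per length of gene, the members spanned a wide range in the normal group. Levels are given here as CPM (the count of a gene scaled to library size, with TMM factors) per kilobase, mean ± SD of 4 rats. Podxl, the sialomucin podocalyxin of the foot process surface that vascular endothelium also makes, stood at 42.3 ± 4.49, and Cd2ap, an adaptor used in many cell types, at 34.5 ± 8.86. The ranges of Podxl and Cd2ap overlapped. Synpo, the actin-associated synaptopodin, followed at 19.8 ± 2.71. Ptpro, a receptor tyrosine phosphatase of the foot process, was at 13.1 ± 2.11 and Nphs1, which encodes nephrin, at 9.08 ± 1.64, again with overlapping ranges. Wt1, the transcription factor that specifies podocytes, was at 4.67 ± 1.12, Plce1, the signalling enzyme phospholipase C epsilon, at 2.14 ± 0.219, and Magi2, a scaffold protein that binds nephrin, at 0.756 ± 0.232. The order of the means was the same in all 4 groups. In the DN group the 4 neighbours from Cd2ap to Nphs1 each overlapped with the next gene in the order.

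**Figure D1:**
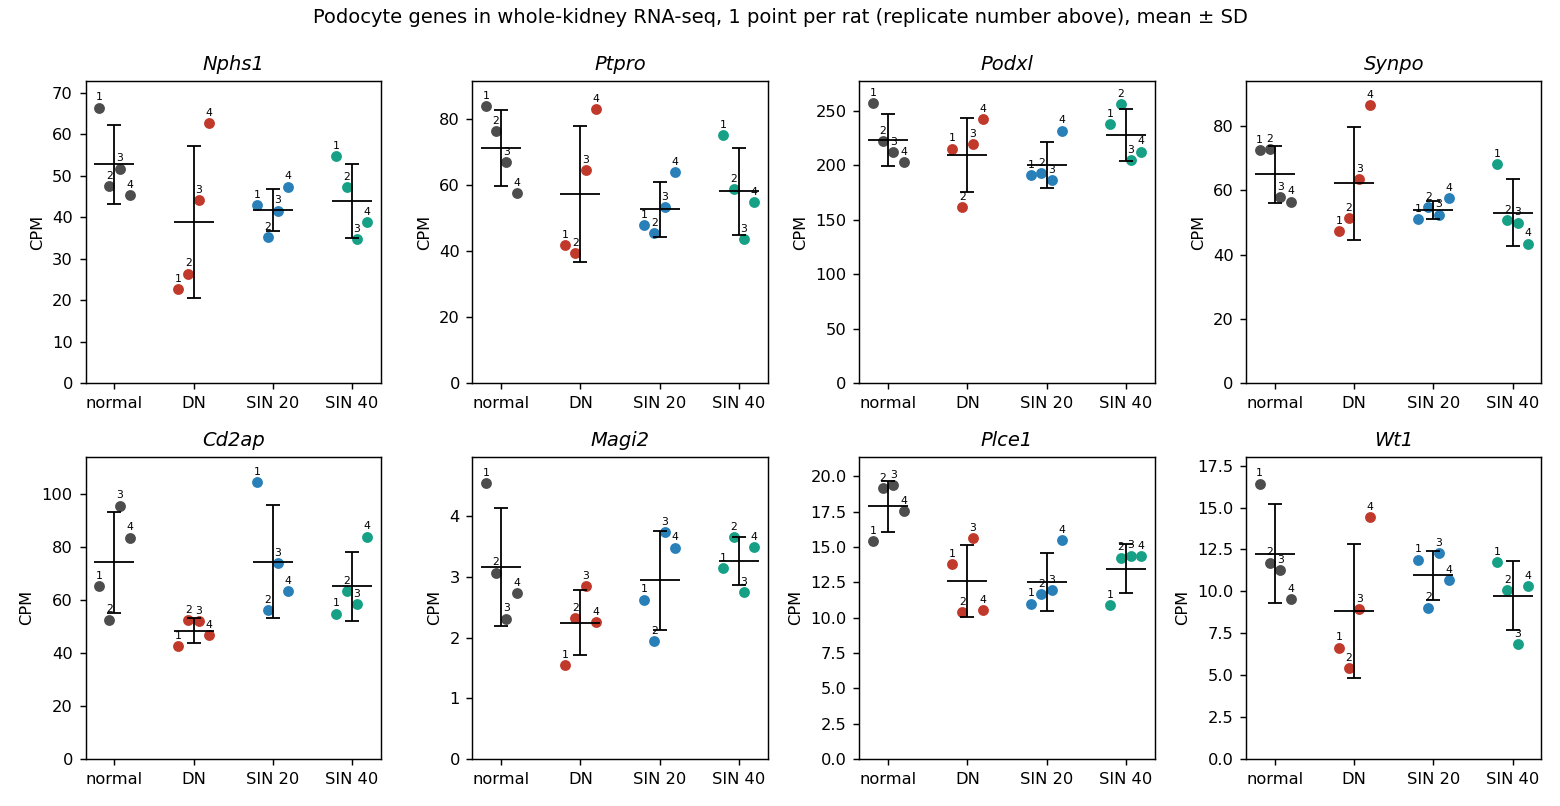
CPM of the 8 podocyte genes in each of 16 rats, by group, with the mean and SD of 4 rats as black bars and the replicate number above each point. DN replicates 1 and 2 were the lowest DN rats for Nphs1, Ptpro, Synpo and Wt1, DN replicate 4 was the highest, and the 4 DN rats lay below all other groups for Cd2ap only.

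The first comparison asked how podocyte transcripts differed between diabetic and normal kidney. All 8 members had a fitted log2 fold change below 0 in the DN group over the normal group, against 49.9% of the 15777 genes tested, and their median was -0.45 against 0.0016 over all genes. A single member passed the test, Cd2ap, which fell by 0.62 on the log2 scale. This share of 1 in 8 was no larger than the background, since 19.5% of all genes passed and 10.8% passed with a lower value. At an unadjusted p under 0.05, 2 of 8 members were lower, Cd2ap and Plce1, where 19.4% of all genes were. Groups did not overlap for 1 of 8 members, Cd2ap, and did not overlap with lower DN values for 13.0% of all genes.

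For Nphs1, normal replicates 1 to 4 gave 66.4, 47.5, 51.7 and 45.3 CPM, and DN replicates 1 to 4 gave 22.6, 26.4, 44.0 and 62.6 CPM. DN replicates 1 to 3 lay under every normal rat, replicate 3 only just, while DN replicate 4 lay above 3 of the normal rats. The log2 fold change was -0.44 with SE 0.29 and an adjusted p of 0.297 in edgeR's quasi-likelihood test, and its 95% interval ran from -1.09 to 0.21. Without DN replicate 4 the fold change of Nphs1 was -0.77 and edgeR's adjusted p was 0.0514. Nephrin is the transmembrane protein whose extracellular part spans the slit.

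Ptpro gave 83.8, 76.1, 66.8 and 57.5 CPM in the normal rats and 41.9, 39.2, 64.5 and 82.8 CPM in the DN rats. The same pair of DN rats was low and the same DN rat was high as for Nphs1. Its log2 fold change was -0.32 with an interval from -0.83 to 0.20, and -0.55 without DN replicate 4, with an adjusted p of 0.0731 in edgeR's test. The Wt1 values were 16.4, 11.7, 11.3 and 9.55 CPM in normal rats and 6.64, 5.41, 8.92 and 14.4 CPM in DN rats, so that 3 DN rats lay below all normal rats and DN replicate 4 lay above 3 of them. Wt1 had a log2 fold change of -0.47, with an interval from -1.13 to 0.19, and an adjusted p of 0.277 in edgeR's test. Leaving out DN replicate 4 brought Wt1 to -0.81 and past the threshold, with an adjusted p of 0.0463 in edgeR's test.

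Synpo and Podxl differed least between these groups. Synpo was 72.6, 72.7, 58.0 and 56.5 CPM in the normal rats and 47.4, 51.4, 63.5 and 86.5 CPM in the DN rats, with the lowest and the highest of the 8 values both in DN rats. Its log2 fold change of -0.06 had an interval from -0.47 to 0.35 and turned to 0.0485 without DN replicate 1. For Podxl the normal rats gave 257, 222, 212 and 203 CPM and the DN rats 215, 162, 219 and 242 CPM, and only DN replicate 2 lay below the normal range. The interval of its log2 fold change of -0.09 ran from -0.39 to 0.21, and the value turned to 0.016 without DN replicate 2.

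Cd2ap, Magi2 and Plce1, the adaptor, the scaffold and the lipase that act behind the slit diaphragm and that other kidney cells also express, did not show the high DN replicate 4 of the genes above. Cd2ap was 65.3, 52.7, 95.7 and 83.7 CPM in the normal rats and 42.7, 52.4, 52.1 and 46.7 CPM in the DN rats. Every DN rat was below every normal rat, though DN replicate 2 and normal replicate 2 were close. The log2 fold change of Cd2ap was -0.62 with SE 0.18, an interval from -1.01 to -0.23, and an adjusted p of 0.0373 in edgeR's test. Leaving out any single rat other than normal replicate 2 ended the call, with edgeR's adjusted p between 0.0547 and 0.105 and log2 fold changes between -0.68 and -0.47.

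Plce1 was 15.4, 19.1, 19.4 and 17.5 CPM in the normal rats and 13.8, 10.4, 15.6 and 10.5 CPM in the DN rats. Only DN replicate 3 reached the normal range. Its log2 fold change was -0.51 with SE 0.16, and the adjusted p was 0.0519 in edgeR's quasi-likelihood test and 0.0238 in DESeq2. Magi2, the member with the fewest counts, gave 4.55, 3.07, 2.32 and 2.74 CPM in the normal rats and 1.55, 2.33, 2.85 and 2.26 CPM in the DN rats. The groups overlapped, and its log2 fold change of -0.50 had an interval from -1.13 to 0.13.

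The spread among rats differed by gene and group. The coefficient of variation of Nphs1 was 18.0% in the normal group and 47.2% in the DN group, that of Wt1 24.1% and 45.1%, and that of Ptpro 16.1% and 36.0%. Cd2ap went the other way, with 25.7% in the normal group and 9.64% in the DN group, as did Magi2, with 30.7% and 23.9%. These spreads were not tested against each other. DN replicate 4, the DN rat with normal levels of Nphs1, Ptpro and Wt1, is also the DN rat with few inner medulla transcripts. The relation of the inner medulla score to these genes over all rats is given below. Its part in the values of this rat alone was not tested.

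**Figure D2:**
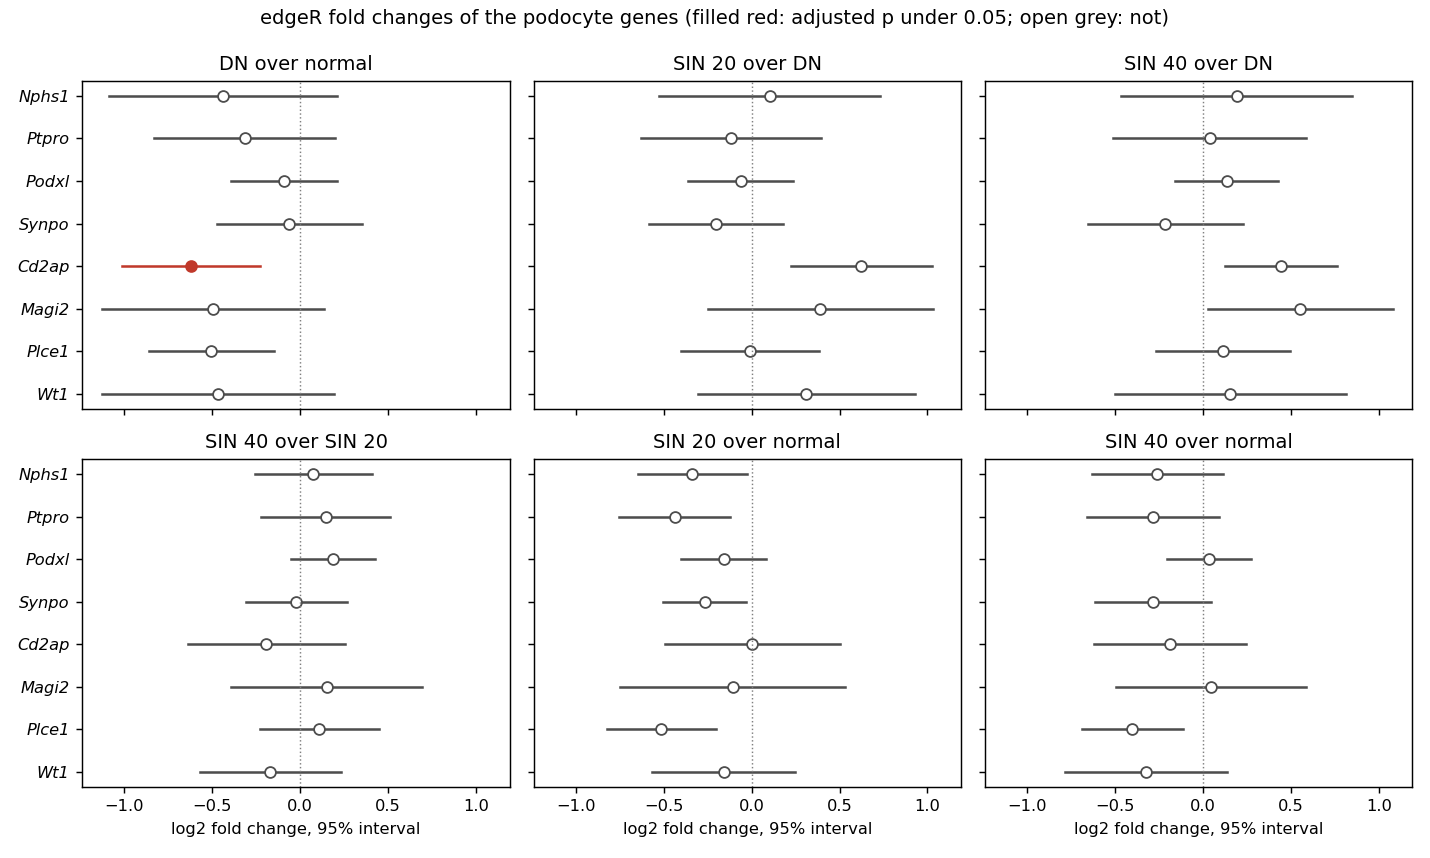
Log2 fold change of each member with its 95% interval in 6 comparisons from edgeR's quasi-likelihood test, with 4 rats in each group. Cd2ap in DN over normal, at -0.62, is the single value with an adjusted p under 0.05, and its intervals in both SIN groups over DN lie above 0 without passing the adjusted threshold.

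The next comparisons asked whether SIN moved these transcripts in diabetic kidney. No member passed an adjusted p under 0.05 in SIN 20 over DN or in SIN 40 over DN by edgeR's quasi-likelihood test, by DESeq2 or by edgeR's exact test, and the quasi-likelihood test called 0% of all 15725 and 15530 genes. At an unadjusted p under 0.05, 1 of 8 members was higher at 20 mg/kg, where 9.19% of all genes were, and 2 of 8 at 40 mg/kg, where 9.90% of all genes were. Cd2ap was the member at 20 mg/kg, and Cd2ap and Magi2 were the members at 40 mg/kg. The median log2 fold change of the 8 genes was 0.05 at 20 mg/kg and 0.15 at 40 mg/kg, against -0.0074 and 0.0067 over all genes. Both comparisons use the same 4 DN rats, so their values stand side by side and not as independent results.

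Cd2ap was 105, 56.3, 74.1 and 63.4 CPM in the SIN 20 rats and 54.9, 63.5, 58.5 and 84.0 CPM in the SIN 40 rats. All 8 SIN rats lay above all 4 DN rats, whose highest value was 52.4 CPM. With each dose taken alone, values that did not overlap in either direction were found for 8.85% of all genes at 20 mg/kg and 10.7% at 40 mg/kg. The share of genes with all 8 SIN rats above all DN rats was not computed. The log2 fold change of Cd2ap was 0.62 with SE 0.18 at 20 mg/kg, with an unadjusted p of 0.00613 and an adjusted p of 0.270 in edgeR's test. It was 0.45 with SE 0.14 at 40 mg/kg, with an unadjusted p of 0.0114 and an adjusted p of 0.209 in edgeR's test.

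Magi2 gave 2.63, 1.95, 3.74 and 3.48 CPM in the SIN 20 rats and 3.14, 3.65, 2.75 and 3.49 CPM in the SIN 40 rats. At 40 mg/kg 3 rats lay above all DN rats, and at 20 mg/kg 2 rats did. Its log2 fold change was 0.39 at 20 mg/kg, with an interval from -0.25 to 1.03. At 40 mg/kg it was 0.55, with an interval from 0.026 to 1.08 and an adjusted p of 0.278 in edgeR's test. Plce1 showed no such shift: the SIN 20 rats gave 10.99, 11.7, 11.9 and 15.5 CPM and the SIN 40 rats 10.9, 14.2, 14.4 and 14.4 CPM, all within the range of the DN rats. Its fold changes over DN were -0.0074 and 0.11, with intervals from -0.40 to 0.38 and from -0.27 to 0.49.

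The genes of the slit diaphragm core and the podocyte surface had values in the SIN groups that lay mostly inside the wide range of the DN group. Nphs1 was 42.8, 35.2, 41.6 and 47.4 CPM in the SIN 20 rats and 54.7, 47.3, 34.6 and 38.8 CPM in the SIN 40 rats, all 8 above DN replicates 1 and 2 and below DN replicate 4. Its fold changes over DN were 0.10, with an interval from -0.53 to 0.73, and 0.19, with an interval from -0.47 to 0.85, and they were -0.0878 and -0.0171 without DN replicate 1 and 0.43 and 0.51 without DN replicate 4. With the inner medulla score as a covariate they were 0.44 and 0.57, with adjusted p of 0.203 and 0.188 in edgeR's test. Ptpro was 47.8, 45.3, 53.2 and 63.8 CPM at 20 mg/kg and 75.0, 58.7, 43.5 and 54.7 CPM at 40 mg/kg, with fold changes over DN of -0.12 and 0.04. Ptpro thus stayed within the DN range in all 8 SIN rats.

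Wt1 was 11.9, 9.03, 12.3 and 10.7 CPM in the SIN 20 rats and 11.7, 10.1, 6.86 and 10.3 CPM in the SIN 40 rats, with fold changes over DN of 0.31 and 0.16. With the inner medulla score as a covariate these were 0.62 and 0.48, with adjusted p of 0.0883 and 0.272 in edgeR's test. All SIN values of Wt1 were within the DN range. Synpo ran from 51.1 to 57.5 CPM at 20 mg/kg and from 43.4 to 68.1 CPM at 40 mg/kg, and its fold changes over DN were -0.20 and -0.21. For Podxl the ranges were 186 to 232 CPM and 205 to 256 CPM, and the fold changes were -0.06 and 0.14. SIN 40 replicate 4 was below the DN range for Synpo and SIN 40 replicate 2 was above it for Podxl. The intervals of the fold changes of Nphs1, Ptpro, Wt1, Synpo and Podxl over DN included 0 at both doses, and the highest bound among them was 0.93, for Wt1 at 20 mg/kg.

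Between the doses, SIN 40 over SIN 20, no member passed the adjusted threshold by edgeR's quasi-likelihood test, by DESeq2 or by edgeR's exact test, and none had an unadjusted p under 0.05. Of all 15657 genes, 0.00639% passed the adjusted threshold and 4.98% the unadjusted one. The fold changes of the 8 members ran from -0.19 for Cd2ap to 0.19 for Podxl. The widest interval was that of Magi2, from -0.39 to 0.69, and the narrowest that of Podxl, from -0.05 to 0.42.

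The SIN groups were also set against the normal group, a comparison added after the data had been seen. No member passed the adjusted threshold of edgeR's quasi-likelihood test in either SIN group, where 6.35% and 5.97% of all genes did. At an unadjusted p under 0.05, 4 of 8 members were lower at 20 mg/kg, where 10.6% of all genes were, namely Plce1, Ptpro, Synpo and Nphs1. At 40 mg/kg it was Plce1 alone, where 11.5% of all genes were lower. Plce1 had a log2 fold change of -0.51 over normal at 20 mg/kg with an adjusted p of 0.0581 in edgeR's quasi-likelihood test, and it passed in DESeq2 (adjusted p = 0.0150) and in edgeR's exact test (adjusted p = 0.0337). Without SIN 20 replicate 4 it passed, with an adjusted p of 0.0308 in edgeR's test. At 40 mg/kg it was -0.40 with an adjusted p of 0.101 in edgeR's test, and all 4 rats lay below all normal rats, as for 7.46% of genes.

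Kirrel1, which encodes the nephrin-like protein NEPH1 and is not one of the 8 genes, had log2 fold changes between -0.26 and 0.15 in all 6 comparisons and passed in none.

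Across the 16 rats the members fell into a set that varied together and a pair that did not. Pearson's r in log2 CPM was 0.91 between Nphs1 and Ptpro, 0.89 between Nphs1 and Wt1, 0.83 between Ptpro and Synpo and 0.76 between Ptpro and Podxl. With the group mean taken from each value these were 0.93, 0.89, 0.86 and 0.78, so the covariation was present among rats of the same group. Magi2 had intermediate values, at most 0.60 and reached with Nphs1. Cd2ap and Plce1 had r between -0.34 and 0.33 with every other member. These values are descriptions, and the genes share libraries and depth. They were not computed without normal replicate 1 and DN replicate 4, the rats with the lowest inner medulla scores. Nor was the ranking of like genes below.

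**Figure D3:**
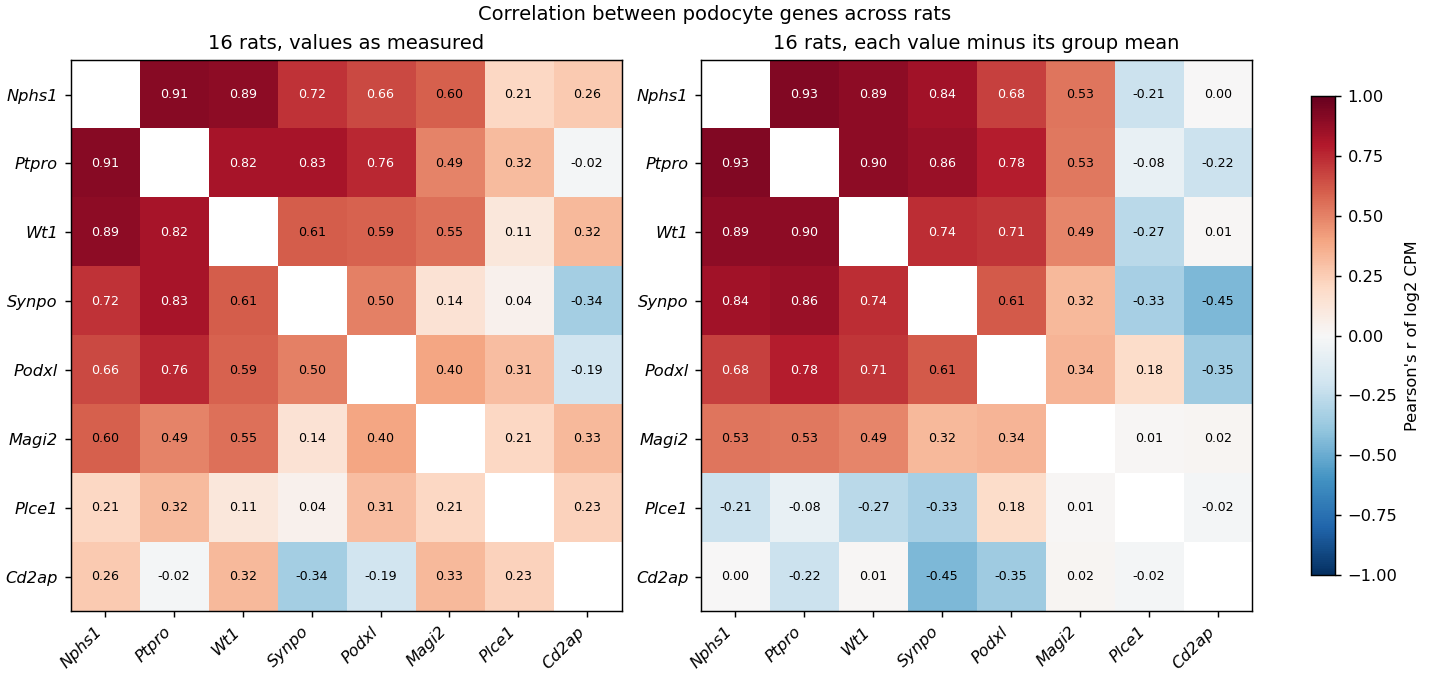
Pearson's r between the 8 genes over 16 rats, in log2 CPM, as measured on the left and with group means removed on the right. Nphs1, Ptpro, Wt1, Synpo and Podxl form a block with r from 0.50 to 0.91 on the left, and Cd2ap and Plce1 lie outside it.

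The genes most like the members were found by the Pearson r of log2 CPM with the mean standardised value of the 8 members over 16 rats, among all genes that passed the filter. The highest was Clic5, an intracellular chloride channel protein of the foot process cytoskeleton, with r = 0.93 and 0.93 with group means removed. The next were Il31ra at 0.92, Homez at 0.90, Tmem52b at 0.89, Acsl3 at 0.88, Ntrk2 at 0.88, Mylk3 at 0.88, Tspan2 at 0.87, LOC500877 at 0.86 and Pip5k1b at 0.86. Of these 10 genes, Clic5 alone was in one of the lists of podocyte genes used here. Clic5 was 76.7, 68.3, 65.4 and 62.6 CPM in the normal rats and 47.3, 47.7, 70.1 and 66.8 CPM in the DN rats, with DN replicates 1 and 2 again the lowest.

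The members were then set against a score of genes of other glomerular cells, taken to stand for the glomerular content of each sample. The glomerular score is the mean deviation in log2 CPM of 13 glomerular endothelial and 12 mesangial genes from their mean over all rats. It was between -0.27 and -0.02 in the normal rats and between 0.05 and 0.34 in the DN rats, so these groups did not overlap. In the SIN 20 rats it ran from -0.14 to 0.04 and in the SIN 40 rats from -0.06 to 0.02. The endothelial genes alone overlapped between the normal rats, at -0.17 to 0.06, and the DN rats, at 0.0096 to 0.094. The mesangial genes alone did not, at -0.42 to 0.01 and 0.07 to 0.64. The contractile gene Tagln rose most in the mesangial list, by 1.81 on the log2 scale with an adjusted p of 0.00641 in edgeR's test. DN replicate 3, the rat with the highest score for urothelium, capsule and stroma genes, also had the highest glomerular score, at 0.34. Of the mesangial list, Acta2 was 192 CPM and Des 69.6 CPM in this rat, against at most 59.3 and 21.4 CPM in any other. The part of tissue outside the glomerulus in the score was not tested. Since the score itself differed between these groups, glomerular content and the diabetic state cannot be told apart in it.

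Over 16 rats the glomerular score was related to 1 member, and how many of all genes are related to it was not computed. Of 8 relations computed, that of Nphs1 had Pearson's r = -0.30 (permutation p = 0.261, adjusted over the 8 relations 0.522) and Spearman's rank correlation = -0.19 (permutation p = 0.49). Cd2ap was the only member past the threshold, with r = -0.64 (permutation p = 0.00621, adjusted 0.0497) and Spearman's rank correlation = -0.78 (permutation p = 0.00064). Without the pair of rats farthest from the median score r was -0.69 for Cd2ap. Within groups, with the group means removed, it was -0.32 (permutation p = 0.279), so a relation of Cd2ap within groups was not detected.

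Taken per glomerular score, as log2 CPM minus the score, all 8 members were lower in the DN group than in the normal group. The mean score was -0.098 in the normal, 0.16 in the DN, -0.055 in the SIN 20 and -0.0096 in the SIN 40 rats. Subtracting it therefore lowers every gene in DN over normal, an unchanged gene included, and raises every gene in the SIN groups over DN. The difference was -0.85 for Cd2ap, -0.78 for Plce1 and -0.73 for Magi2, each with an exact two-sided permutation p = 0.0286, the smallest that 4 rats against 4 allow. It was -0.80 for Nphs1 and for Wt1 and -0.63 for Ptpro, each with an exact permutation p = 0.114. These p-values are unadjusted, and the tests covered 8 members in each of 4 comparisons. In SIN 20 over DN the difference for Cd2ap was 0.80 (exact permutation p = 0.0286). In SIN 40 over DN it was 0.58 for Cd2ap and 0.71 for Magi2 (exact permutation p = 0.0286 for both). All other differences in the SIN groups over DN and between the doses had an exact permutation p of 0.0857 or more. In DN over normal and in both SIN groups over DN, Cd2ap and the score each did not overlap, in opposite directions. Subtracting the score could then only keep the groups apart for Cd2ap. Its exact permutation p of 0.0286 was therefore fixed in advance and adds nothing to its values without the score.

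The count of members that passed per score differed with the rats and genes used. How many of all genes pass per score was not computed, so these counts cannot be set against a background. In DN over normal the count was 3 with all rats, 6 without DN replicate 4 and 1 without DN replicate 1, 2 or 3. The count of 3 includes Cd2ap, whose outcome was fixed in advance. The differences stayed below 0: without one of the DN rats Cd2ap ran from -0.92 to -0.77 and Magi2 from -0.79 to -0.55, each with an exact permutation p = 0.0571, a single step above 0.0286 when 3 rats are set against 4. With the endothelial genes alone as the score it was 1, and with the other podocyte genes in place of the score it was 0. With the glomerular score as a covariate in edgeR, Cd2ap had a log2 fold change of -0.54 and an adjusted p of 0.364, and Plce1 moved from -0.51 to -0.87 with an unadjusted p of 0.00286 and an adjusted p of 0.169.

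The inner medulla score, a relation examined after the data had been seen, was related to 4 of the 8 members, with no share computed over all genes. Its correlation was -0.69 with Nphs1 (permutation p = 0.00378, adjusted over 8 relations 0.0101), -0.69 with Ptpro (permutation p = 0.00259, adjusted 0.0101), -0.66 with Wt1 (permutation p = 0.00581, adjusted 0.0116) and -0.78 with Synpo (permutation p = 0.00045, adjusted 0.0036). Spearman's rank correlation was -0.62 for Nphs1, -0.59 for Ptpro, -0.59 for Wt1 and -0.68 for Synpo, with permutation p from 0.00463 to 0.0195. With group means removed, r was -0.74, -0.64, -0.76 and -0.71 in the same order. The other members did not pass: r was -0.39 for Podxl (adjusted 0.212), -0.29 for Magi2, -0.0052 for Cd2ap and 0.02 for Plce1. With group means removed Plce1 had r = 0.63 (permutation p = 0.0204, adjusted 0.0326), of the opposite sign to the genes above, and it passed there beside those 4.

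These relations rested in part on 2 rats. Without normal replicate 1 and DN replicate 4, the rats with the lowest inner medulla scores, r was -0.48 for Nphs1, -0.48 for Ptpro, -0.40 for Wt1 and -0.62 for Synpo, and no relation passed the threshold after adjustment over the 8 relations. With the inner medulla score as a covariate in edgeR, the DN over normal fold change was -0.27 for Nphs1, -0.28 for Wt1, -0.18 for Ptpro and 0.059 for Synpo. Cd2ap and Plce1 were -0.67 and -0.59 in that fit, with adjusted p of 0.0365 and 0.0314 in edgeR's test.

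**Figure D4:**
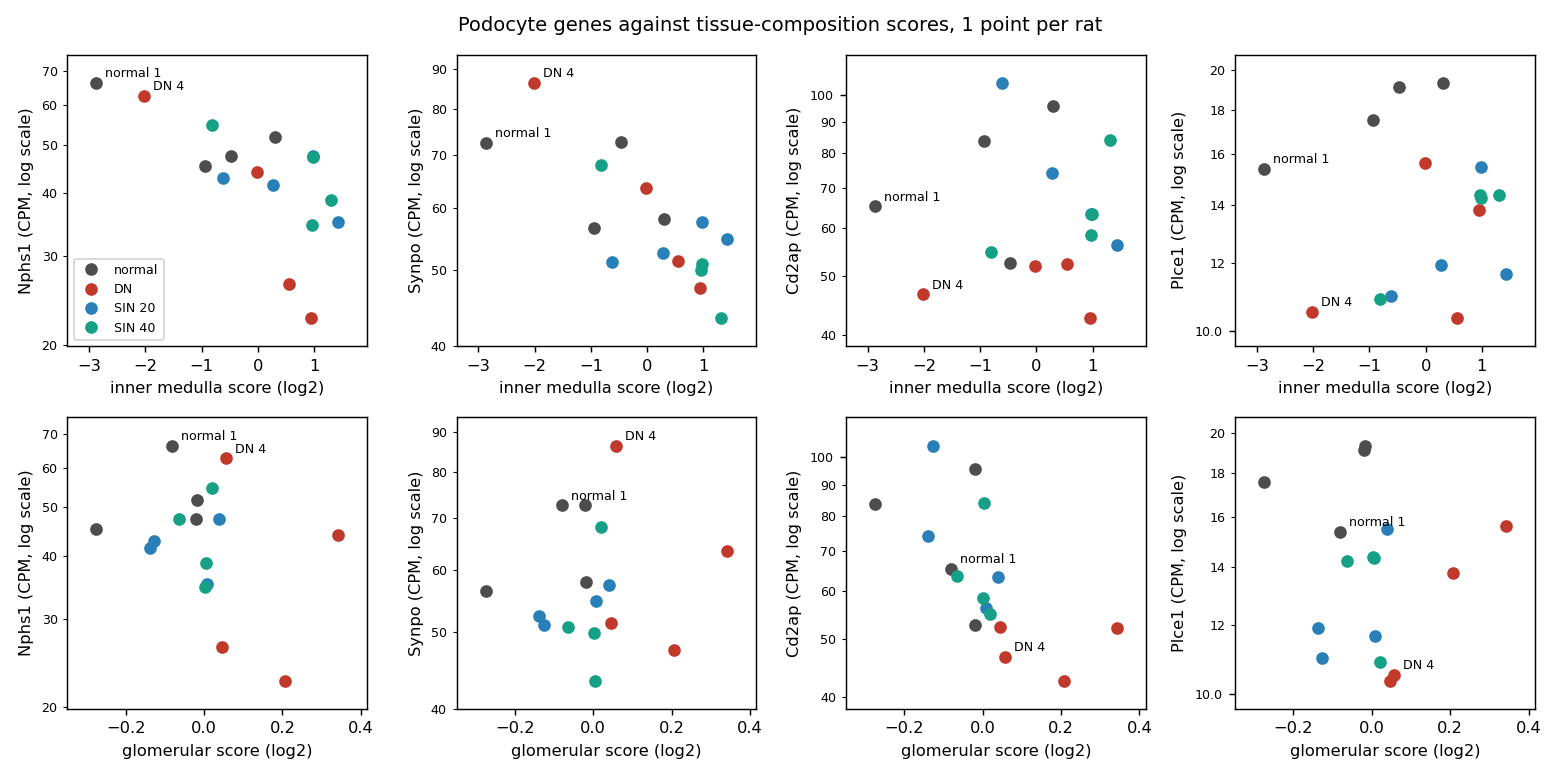
CPM on a log axis of Nphs1, Synpo, Cd2ap and Plce1 against the inner medulla score (top) and the glomerular score (bottom), 1 point per rat coloured by group. Normal replicate 1 and DN replicate 4, with the lowest inner medulla scores, are among the highest rats for Nphs1 and Synpo and not for Cd2ap and Plce1.

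In a list of 31 further podocyte genes, 17 were fitted higher and 14 lower in DN over normal, with a median log2 fold change of 0.0059. Of the 31, 1 rose and 2 fell, a share of 9.68% where 19.5% of all genes passed. Clic5, a gene of this list, had DN replicates 1 and 2 as its lowest rats, as did Nphs1 and Ptpro. Dach1, a nuclear factor of podocytes, fell by 1.05 on the log2 scale with an adjusted p of 0.0133, and Npnt, the basement membrane ligand nephronectin, fell by 0.47 with an adjusted p of 0.0139, both in edgeR's test. Cdkn1c, the cell cycle inhibitor p57 that mature podocytes express, rose by 1.25 with an adjusted p of 0.031 in edgeR's test. Dach1 was 39.9, 27.5, 40.2 and 31.5 CPM in the normal rats and 11.3, 15.0, 20.6 and 20.5 CPM in the DN rats, with no overlap. Arhgap24, the most abundant gene of the list, had a log2 fold change of -0.09. In the SIN groups over DN 0 of the 31 genes passed edgeR's adjusted threshold, as for 0% of all genes. At an unadjusted p under 0.05, 1 was higher and 0 lower at 20 mg/kg, and 2 were higher and 2 lower at 40 mg/kg. Of all genes 9.19% and 9.90% were higher there, and the share that was lower is not given. Over the normal group, 2 of the 31 genes were lower at 20 mg/kg, among them Htra1, a secreted protease. At 40 mg/kg 3 were lower, among them Htra1 and Tcf21, a transcription factor of podocytes and stroma, and 1 was higher, Cdkn1c.

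The list of slit diaphragm adaptors and regulators of foot process actin had 27 tested rows, 2 of them for Cttn. In DN over normal 3 rose and 3 fell, a share of 22.2% where 19.5% of all genes passed, with a median of 0.08. Tns2, the focal adhesion protein tensin 2, rose by 0.52, Arhgdia rose by 0.41 and Ilk, integrin-linked kinase, rose by 0.34. Nck1, an SH2 adaptor that binds phosphorylated nephrin, fell by 0.78, Pik3r1, the regulatory subunit of PI3-kinase, fell by 0.60 and Itgb1, the beta 1 integrin chain, fell by 0.35. The adjusted p of these 6 genes ran from 0.0152 to 0.0342 in edgeR's test. Ezr, which encodes the membrane linker ezrin and was the most abundant of the list, had a log2 fold change of 0.23 and did not pass. None of the 27 passed in the SIN groups over DN in edgeR's test. At an unadjusted p under 0.05, 2 were higher and 1 lower at 20 mg/kg, and 3 were higher and 1 lower at 40 mg/kg. Of all genes 9.19% and 9.90% were higher there, and the share that was lower is not given.

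The other cells of the glomerulus were followed by marker lists in DN over normal, to be read against the 19.5% of all genes that passed. Of 13 glomerular endothelial genes, 2 rose, Esam by 1.02 and Eng by 0.57, and none fell, a share of 15.4%, with 7 of the 13 fitted higher and 6 lower. Of 12 mesangial genes, 4 rose, namely Tagln, Mcam, Notch3 and Pdgfrb, and 2 fell, Agtr1a by 0.61 and Itga8 by 0.54, with 10 fitted higher and 2 lower. Of 7 genes of the parietal epithelium, which lines Bowman's capsule, Krt8 rose by 0.83 and Pax8 by 0.50, and the list median was 0.50. The 6 inner medulla rows, 2 of them for Slc14a2, had a median of 0.78. None passed in edgeR's test, with 1 at an unadjusted p under 0.05. Their summed level ran from 67.9 to 426 CPM in the normal rats and from 69.5 to 476 CPM in the DN rats. No proximal tubule gene of 11 passed, with 1 higher and 1 lower at an unadjusted p under 0.05. Umod and Slc26a4, of 15 genes of the loop, distal tubule and collecting duct, fell by 0.77 and 0.89. Of the 10 urothelium, capsule and stroma genes Col1a1 rose and Dpt fell, and of the 7 leukocyte genes Ptprc fell. The medians of the proximal tubule, the loop to collecting duct and the leukocyte lists were below 0, at -0.07, -0.12 and -0.24. Beyond the relations to the glomerular and inner medulla scores given above, the part of these lists in the values of the podocyte genes was not tested.

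**Figure D5:**
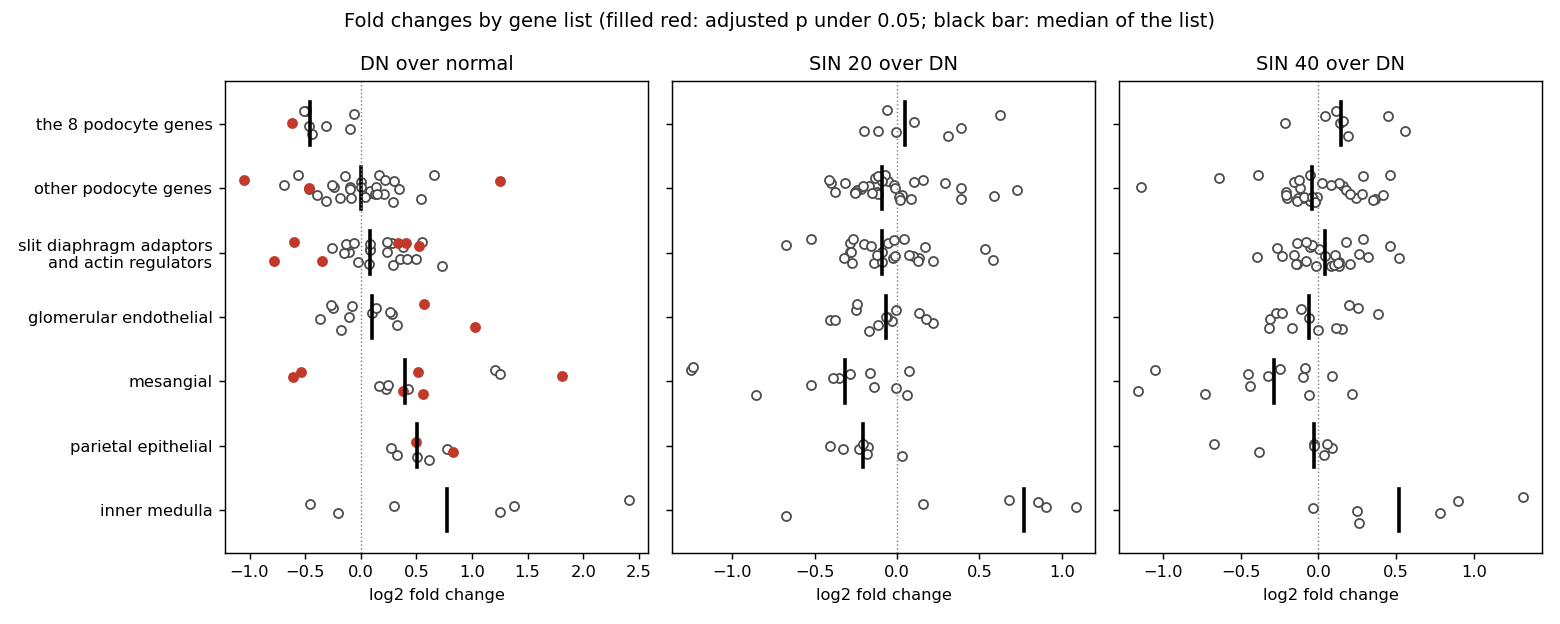
Log2 fold change of every tested gene in 7 lists for DN over normal, SIN 20 over DN and SIN 40 over DN, with filled red points for an adjusted p under 0.05 and a black bar for the median of the list. The 8 podocyte genes lie below 0 in DN over normal with a median of -0.45, while the medians of the other plotted lists lie between 0.0059 and 0.78. Of the lists not plotted, the leukocyte, the loop to collecting duct and the proximal tubule genes had medians of -0.24, -0.12 and -0.07. The urothelium, capsule and stroma genes had a median of 0.70.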

How the data were processed

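The authors extracted RNA from kidney, enriched polyadenylated mRNA with oligo(dT) and sequenced it on an Illumina NovaSeq. Reads were trimmed with SeqPrep and Sickle and aligned with TopHat to Rnor_6.0. The submitters' processing notes also name Bowtie, RSEM and edgeR. The authors deposited estimated counts per gene without normalization, of which 74.3% of nonzero values were whole, and these were rounded here. The deposited columns were matched to rats by the library numbers in the labels, and 4 library columns that match no sample were not used, nor were the group means.

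Counts were tested with edgeR 4.0.16 (quasi-likelihood, TMM, filterByExpr, 8 rats per fit, two-sided, Benjamini-Hochberg over all genes tested), in R 4.3.3. CPM used TMM factors over 16 rats, log2 CPM a prior count of 2. Intervals are at 95%. Scores were compared by exact permutation over 70 divisions of 8 rats, and correlations by 100000 permutations, within groups where group means were removed. Alternatives used DESeq2 1.42.0, edgeR's exact test, RLE, no filter, at least 10 counts in every rat, all 16 rats in one fit, a replicate block, a glomerular or inner medulla score covariate, and each rat left out. The steps were tested on simulated data.

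Samples are separate rats. The members and gene lists were chosen with earlier results of these data known. Named beside the members are Kirrel1, up to 4 called genes and the most abundant gene of a list, and the 10 genes most like the members. Some genes within this rule are not reported here. Coordinates are of GRCr8 and were used for promoter sequence only.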

Additional observations from a re-analysis of the deposited data

Results flagged for a closer look

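A rat was taken as standing apart when its gap to the nearest of the 4 rats of its group, divided by the range of the group, was above Dixon's 95% critical value. Among 72 sets of 4 rats checked over the named genes and scores, 5 gave such a rat, and chance gives about 1 in 20. SIN 20 replicate 4 stood apart for 2 podocyte genes: its Podxl was 232 CPM against 186 to 193 CPM in the other rats of its group, and its Clic5 was 72.1 CPM against 56.3 to 58.9 CPM. SIN 40 replicate 1 stood apart for the others: its Plce1 was 10.9 CPM against 14.2 to 14.4 CPM, its Cdkn1c was 39.9 CPM against 66.0 to 68.8 CPM, and its inner medulla score was -0.81 against 0.97 to 1.31. The Nphs1 of the same rat, at 54.7 CPM, was the highest of its group.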

How the results depend on the processing

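Few rats, wide spread among the DN rats and the low counts of Magi2 and Wt1 limit these results, since fold changes smaller than the printed intervals could not be told from 0. Library serial numbers run with the groups. The glomerular score moved with the DN group, and 2 rats carried much of the relation to the inner medulla score. The cause of the changes below was not tested. The score covariates leave fewer residual degrees of freedom.

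In DN over normal 1 member passed. It was 2, Cd2ap and Plce1, with DESeq2, edgeR's exact test, a filter of at least 10 counts per rat, a single fit of all 16 rats and the inner medulla score as a covariate, and 0 with the glomerular score as a covariate. Leaving out each rat in turn gave 0 to 1 members. In SIN 20 over normal, where 0 passed, DESeq2 called 1 member, edgeR's exact test called 1, and leaving out a rat gave 0 to 1. In SIN 40 over normal it was 1 with the inner medulla covariate, which like the comparisons with the normal group was chosen after seeing the data.

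With the replicate number as a block (replicate block), 0 members passed in DN over normal, and Cd2ap had -0.59 with an adjusted p of 0.0681 in edgeR's test. Plce1 turned to 0.0018 in SIN 20 over DN and Cd2ap to -0.0003 in SIN 20 over normal. Same-numbered rats had correlations between -0.24 and 0.24, so the numbers are only names, and pairing was not used.

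Fold changes that turned in sign with the glomerular score as a covariate were those of Podxl to 0.0926 and Plce1 to 0.44 in SIN 20 over DN. With the inner medulla score as a covariate they were Synpo to 0.0588 in DN over normal, Ptpro to 0.0973 in SIN 20 over DN, Synpo to 0.0136 in SIN 40 over DN, Wt1 to 0.14 and Magi2 to 0.31 in SIN 20 over normal, and Nphs1 to 0.0106 in SIN 40 over normal. None of these passed in either direction.

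With a rat left out, signs turned within these ranges of log2 fold change. In DN over normal Podxl ran from -0.1722 to 0.0161 and Synpo from -0.27 to 0.0485. In SIN 20 over DN Nphs1 ran from -0.0878 to 0.43, Podxl from -0.17 to 0.014, Ptpro from -0.26 to 0.12 and Plce1 from -0.13 to 0.11. In SIN 40 over DN Nphs1 ran from -0.0171 to 0.51, Wt1 from -0.0163 to 0.49 and Ptpro from -0.11 to 0.27. Between the doses Nphs1 ran from -0.0499 to 0.18, Synpo from -0.17 to 0.0655, Cd2ap from -0.34 to 0.0222, Ptpro from -0.0042 to 0.26 and Magi2 from -0.0065 to 0.28. In SIN 20 over normal Wt1 ran from -0.26 to 0.0181, Cd2ap from -0.21 to 0.15 and Magi2 from -0.24 to 0.12. In SIN 40 over normal Podxl ran from -0.0238 to 0.107 and Magi2 from -0.0751 to 0.27.

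Against the glomerular score 1 member passed. It was 0 with a prior count of 0.25, 0 with group means removed, 0 with the endothelial genes alone, 0 with the mesangial genes alone, and 2 without the 2 rats farthest from the median score. With group means removed r turned to 0.0361 for Nphs1, 0.0132 for Wt1, 0.24 for Ptpro and 0.61 for Plce1. Without those 2 rats it was -0.0386 for Synpo, and with the endothelial genes alone -0.0065 for Synpo and 0.0502 for Plce1. Against the inner medulla score 4 passed, 5 with group means removed, Plce1 among them with a positive r, and 0 without the 2 farthest rats, where r of Plce1 turned to -0.10, while r of Cd2ap turned to 0.0157 with group means removed.

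Per glomerular score, 3 members passed in DN over normal, with no share over all genes computed in any comparison. Cd2ap, whose outcome was fixed in advance, is counted there and in both SIN groups over DN. The count was 1 with the endothelial genes alone and 0 with the other podocyte genes in place of the score. It was 1 to 6 with a rat left out. In SIN 20 over DN 1 passed, 2 with the mesangial genes alone and 0 to 4 with a rat left out. In SIN 40 over DN 2 passed, 1 with the endothelial genes alone, 1 with the other podocyte genes and 0 to 3 with a rat left out. Between the doses 0 passed, 1 with the other podocyte genes and 0 to 1 with a rat left out.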
